A study of Mus musculus with 4 samples.

Results

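Krüppel-like factors are transcription factors that bind CACCC and GC-rich DNA through 3 zinc fingers near the C-terminus. Those covered here were Klf2, Klf3, Klf4, Klf9, Klf10 and Klf13, taken as every probe set whose single gene symbol in the platform annotation is one of these names. This gave 11 probe sets for 6 genes, out of 12488 probe sets and 8251 named genes on the array. RNA was measured in CD4+CD8+ double-positive thymocytes of female C3H/HeN mice aged 4 weeks, isolated with microbeads and kept in culture for 3 h (3 ml, 5.0E+06 cells per ml). One group received 1e-07 M dexamethasone, a synthetic glucocorticoid, in PBS, and the other received medium with 0.1% PBS. Each group had 2 arrays, described by the submitters as technical replicate extracts, so p-values measure only the spread between these extracts. The study, by its title, was about regulators of apoptosis in these cells after dexamethasone.

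The outer parts of these proteins differ and decide whether a family member activates or represses. Klf2 keeps mature T cells quiescent and promotes their exit from the thymus, Klf3 represses transcription by recruiting CtBP corepressors, and Klf4 restrains proliferation. Klf9, Klf10 and Klf13 share an N-terminal motif that binds the Sin3 corepressor. Klf9 is a direct target of the glucocorticoid receptor in several tissues, Klf10 is an early target of TGF-beta, and Klf13 activates the chemokine gene Ccl5 in T cells.

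Klf3 and Klf10 were lower in the extracts with dexamethasone at 3 h, and no Krüppel-like factor covered here rose past the threshold. Klf3 was 2.12-fold lower on its brighter and 1.93-fold lower on its dimmer probe set, and Klf10 was 1.60-fold and 1.61-fold lower on its probe sets. Klf9 was 1.64-fold higher without passing, and Klf2 and Klf13 did not pass either. Klf4 lay at background in both groups. In counts, 2 of the 5 tested genes fell and 0 rose, beside 2.02% of all 5582 tested genes that fell and 1.88% that rose, 3.91% in either direction (limma, Benjamini-Hochberg adjusted p under 0.05). The members were chosen with earlier results of these data known, so these shares set no scale for their count. Klf4 did not pass the filter on low signals and was not tested. Neither call held under every processing, as given with each gene. At an unadjusted p under 0.05 there were 1111 genes.

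Signals are MAS5 intensities on a linear scale in arbitrary units, and differences are dexamethasone minus medium on the log2(signal + 1) scale, which understates changes of dim genes. Between 55.6% and 57.1% of probe sets exceeded 14, the highest value among 19 control probe sets for bacterial and yeast transcripts, and values at or under 14 are called background. The 13 measured markers of double-positive thymocytes all exceeded it on every array. Of these 1 rose, Satb1, at a log2 difference of 0.43, and 2 fell, Ptcra at -0.84 and Cd8b1 at -0.33. Beside this and the marker counts below, 1.88% of all tested genes rose and 2.02% fell. The median log2 difference of the 13 was -0.06. The dexamethasone arrays read 1.37-fold higher, on average, for the 9 hybridization control probe sets. Scaling to those would shift every gene alike, moving the median of all genes to -0.45. The limma p-values after that scaling rest on a spread shared by genes of like signal, not on each gene's own. They are not comparable with those of the reported fit. The 3′/5′ actin ratio, a measure of RNA integrity, was higher with dexamethasone (1.40 and 1.24) than in medium (1.15 and 1.06). The same ratio of Gapdh overlapped between the groups, at 0.904 and 0.823 with dexamethasone and 0.838 and 0.845 in medium. The part of RNA integrity in the results was not tested. Of 7 measured B cell markers 1 rose, Ighm, the mu heavy chain, from 1282.4 and 1257.4 to 1751.4 and 1748.9. Ighm made up most of the list's summed signal of 1416 to 1442 in medium and 1920 to 1936 with dexamethasone, and Cd79a, Cd79b, Blnk, Ms4a1 and Pax5 did not pass, with Cd22 at background. Of 7 double-negative thymocyte markers 1 fell, Gfi1, from 227.6 and 225.5 to 128.4 and 138.4. Of the 5 tested, 3 were higher, with a median log2 difference of 0.20. Il2ra, Kit and Cd44 were at background, and Kit was among the 3 higher and gave that median. The list's summed signal was 345.6 and 365.9 in medium against 261.8 and 272.4 with dexamethasone, with Gfi1 the largest part on every array. Of 11 macrophage and dendritic cell markers 1 fell, H2-Ab1, while 3 of the 7 tested were higher, with a median log2 difference of -0.25. The sum was 562.1 and 588.3 in medium against 488.1 and 459.2 with dexamethasone, mostly Cd74. Lyz2, Itgam, Adgre1 and Fcgr3 were at background. The part of these shifts in the results was not tested. Fewer cells of a type and less RNA per cell cannot be told apart in such bulk samples.

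**Figure D1:**
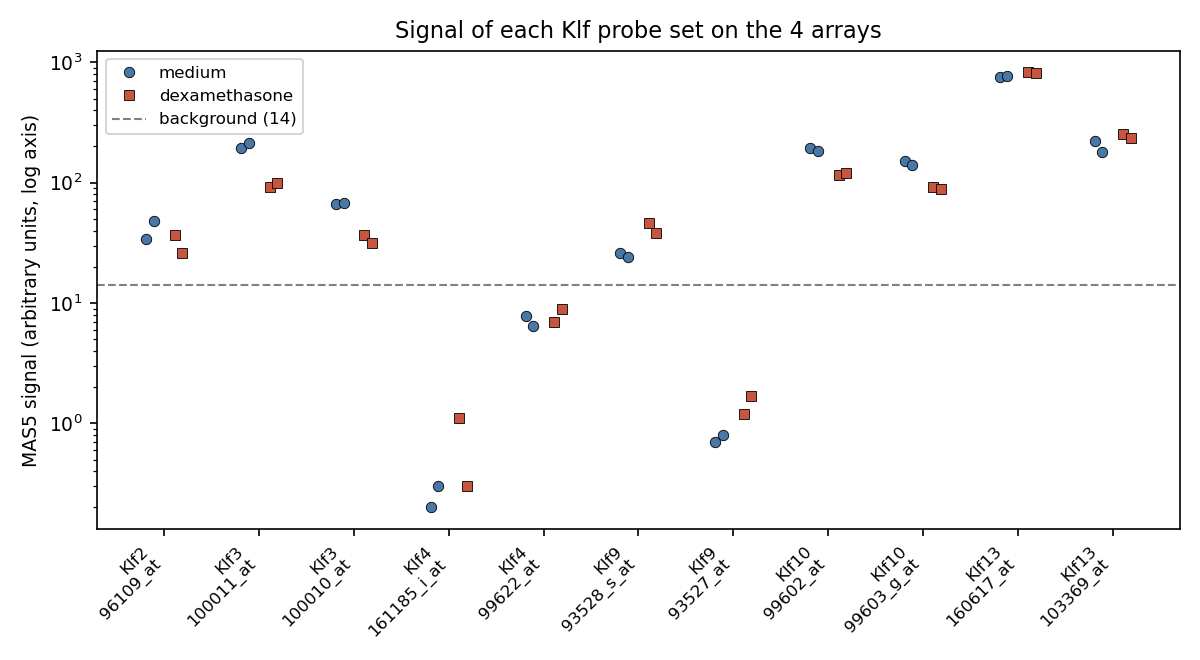
MAS5 signal (log axis, arbitrary units) of the 11 probe sets on the 4 arrays, with circles for medium, squares for dexamethasone and a dashed line at the background of 14. Both Klf3 and both Klf10 probe sets sit lower with dexamethasone, while both Klf4 probe sets and 1 Klf9 probe set lie under the line on every array.

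Klf3, the CtBP-dependent repressor, had the largest difference of the family. On its brighter probe set, 100011_at, medium gave signals of 194.8 and 213.8, and dexamethasone gave 92.5 and 98.7. Both dexamethasone arrays thus lay below both medium arrays, by a margin several times the gap within either group. The log2 difference was -1.09 ± 0.10 (SE), with a 95% interval from -1.32 to -0.85 (limma adjusted p = 0.00357). This placed Klf3 at rank 25 of 5582 tested genes, counted from the most negative difference. The other probe set, 100010_at, annotated to another transcript accession, read 65.9 and 67.4 in medium and 36.7 and 31.5 with dexamethasone. Its log2 difference was -0.95 ± 0.15, and it also fell in the fit on probe sets (limma adjusted p = 0.0261), where 1.81% of 6701 probe sets fell. Leaving out the second medium array moved the brighter probe set to -1.02 and ended its call (adjusted p = 0.0556), while leaving out any other array kept it at adjusted p from 0.0305 to 0.0409. The dimmer probe set lost its call without any one array, at -0.97 and -0.93 without a medium array and -1.06 and -0.84 without a dexamethasone array, and also without the filter on low signals (adjusted p = 0.0673). A fit without the variance trend, which called 0.34% of genes, called neither Klf3 probe set (adjusted p = 0.0656 for the brighter and 0.0887 for the dimmer).

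The 250 bases before the Klf3 start site are shown because Klf3 changed most and because members of the family bind CACCC boxes, and the Klf9 window is shown as that of the gene with the largest difference in the opposite direction. Both are RefSeq sequence of GRCm38.p6, given 5′ to 3′ on the strand of the gene, with capitals marking CACCC or its reverse complement GGGTG. The Klf3 window is chr5:64803271-64803520 on the plus strand and the Klf9 window chr19:23140976-23141225 on the plus strand.
Klf3: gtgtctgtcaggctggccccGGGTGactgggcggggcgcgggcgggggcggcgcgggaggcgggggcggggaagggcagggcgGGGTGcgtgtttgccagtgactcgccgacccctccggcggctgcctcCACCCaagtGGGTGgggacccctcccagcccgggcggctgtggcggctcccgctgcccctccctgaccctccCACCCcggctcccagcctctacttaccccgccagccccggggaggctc
Klf9: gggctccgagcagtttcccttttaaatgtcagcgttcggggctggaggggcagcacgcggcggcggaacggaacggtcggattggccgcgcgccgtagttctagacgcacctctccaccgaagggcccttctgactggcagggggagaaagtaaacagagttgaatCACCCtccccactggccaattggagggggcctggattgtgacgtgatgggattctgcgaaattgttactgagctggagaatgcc

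The Klf3 window held 5 matches to CACCC over both strands, against 1 each in the windows of Klf2, Klf9 and Klf13 and 0 in that of Klf4. At least 1 match was present in 52% of all 32851 RefSeq promoter windows of the same length. The GC box GGGCGG occurred 6 times in the Klf3 window, 4 times in that of Klf4, 3 times in that of Klf13, 2 times in that of Klf2 and 0 times in that of Klf9, and 32.7% of all windows held it. In Klf3 and in Klf13, 1 CACCC match overlapped a GC box. The GC content of the Klf3 window was 78.4% and that of the Klf9 window 59.6%. The half-site AGAACA of the glucocorticoid response element was in 0 of the 5 windows, beside 16.1% of all windows. These are matches of letters in a short window and say nothing of where a factor binds. The RefSeq table held windows for 5 of the 6 genes, all but Klf10.

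Klf10, the TGF-beta-inducible family member, was the other gene that fell. Probe set 99602_at read 195.7 and 183.9 in medium against 116.4 and 120.7 with dexamethasone. The groups did not overlap, and the arrays within each group differed by far less than the groups did. The log2 difference was -0.67 ± 0.09 (SE), with a 95% interval from -0.89 to -0.46 (limma adjusted p = 0.0143), at rank 114 from the most negative. The second probe set, 99603_g_at, read 150.6 and 141.2 in medium and 92.8 and 88.1 with dexamethasone, a log2 difference of -0.68 ± 0.10 (adjusted p = 0.0209 in the limma fit on probe sets). Both probe sets are annotated to the same transcript accession, so they are no independent measurements. The call rested on all 4 arrays. The log2 difference was -0.63 without the first and -0.72 without the second medium array, and -0.65 without the first and -0.70 without the second dexamethasone array, with limma adjusted p from 0.0590 to 0.147. The second probe set also lost its call without any one array, at -0.64, -0.73, -0.72 and -0.65 in the same order. It was lost as well without the variance trend, on both probe sets (adjusted p = 0.0899 for 99602_at).

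**Figure D2:**
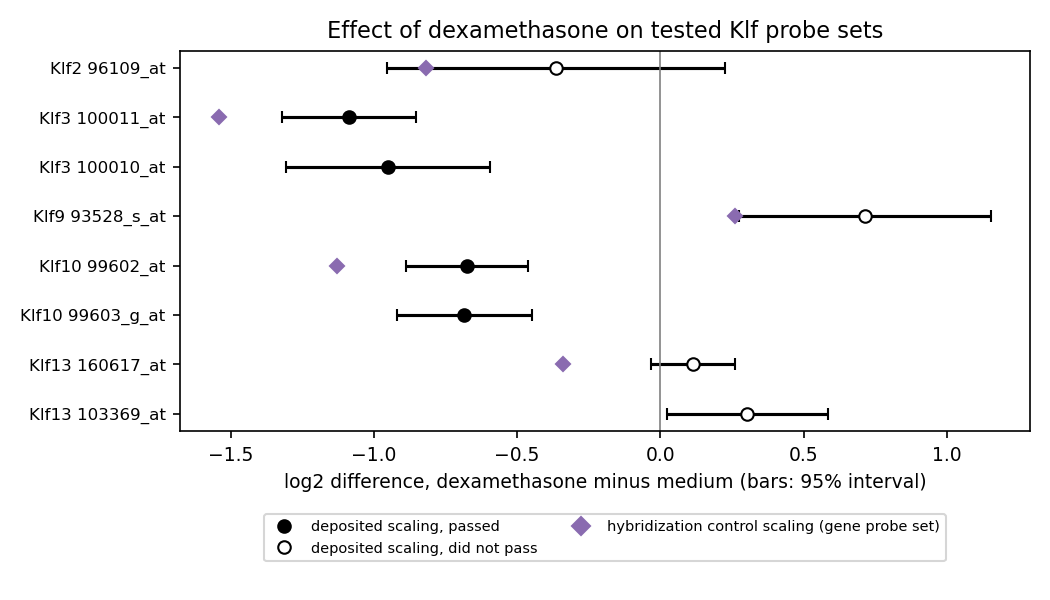
Log2 difference, dexamethasone minus medium, of the 8 tested probe sets with 95% intervals, filled where the limma adjusted p was under 0.05, and diamonds for the difference after scaling to the hybridization controls. Klf3 and Klf10 lie below 0 on both scalings, at -1.09 and -0.67 as deposited, while Klf13 moves from 0.11 to -0.34.

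Klf9, known in other tissues as a glucocorticoid target, was higher with dexamethasone but did not pass. Probe set 93528_s_at read 25.9 and 24.2 in medium against 45.9 and 37.9 with dexamethasone. Both dexamethasone arrays exceeded both medium arrays, and all 4 values were above background. The log2 difference was 0.71 ± 0.18 (SE), with an unadjusted p of 0.00698 and an adjusted p of 0.0922 in limma. Its 95% interval, which is not adjusted for the number of genes, ran from 0.27 to 1.15. It ranked 129 of 5582 from the most positive difference. The other Klf9 probe set, 93527_at, read 0.7 and 0.8 in medium and 1.2 and 1.7 with dexamethasone, all at background, so no fold is given. Scaling to the hybridization controls reduced the difference to 0.26 (adjusted p = 0.358).

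Klf2, the factor of quiescence and thymic exit, was dim and its groups overlapped. Its single probe set, 96109_at, read 34.0 and 47.6 in medium and 36.7 and 26.2 with dexamethasone. The first dexamethasone array exceeded the first medium array, and the arrays within each group differed as much as the groups did. The log2 difference was -0.37 ± 0.24 (SE), with a 95% interval from -0.95 to 0.22 (limma adjusted p = 0.471), which leaves room for a nearly 2-fold fall and for a small rise. The difference was -0.13 without the second medium array and also -0.13 without the second dexamethasone array, and -0.60 without either first array. After hybridization control scaling Klf2 passed downwards at -0.82 (limma adjusted p = 0.00485), a setting in which 44.8% of all genes fell. That scaling moves all genes alike and its p-values rest on a shared spread, so this pass is not comparable with the reported fit. Klf2 is also expressed by endothelial cells, and their markers Cdh5, Tek, Kdr, Tie1, Flt1 and Vwf were at background on every array, 6 of the 8 measured. The 8 summed to 196 and 191.5 in medium against 163.3 and 198.1 with dexamethasone, and Eng made up most of this. Of 5 measured markers of mature single-positive thymocytes, S1pr1 and Cd44 were at background. Of the 3 tested, 1 rose, Il7r, and 2 were lower. The 5 summed to 289.6 and 310.3 in medium against 347.3 and 343.1 with dexamethasone. The part of either cell type in the Klf2 signal was not tested.

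Klf13, an activator of Ccl5, was the brightest of the probe sets and differed little. Probe set 160617_at read 754.6 and 768.3 in medium against 823.9 and 823.6 with dexamethasone. The groups did not overlap, but the shift was small, with a log2 difference of 0.11 ± 0.06 (SE), a 95% interval from -0.03 to 0.26 and an adjusted p of 0.360 in limma. The dimmer probe set, 103369_at, read 220.4 and 179.2 in medium and 256.1 and 235.5 with dexamethasone, a log2 difference of 0.30 ± 0.12 (adjusted p = 0.231 in the limma fit on probe sets). Without the second medium array this was 0.16, and without the first 0.45. Scaling to the hybridization controls turned both, to -0.34 (adjusted p = 0.0684) and -0.15, so the direction of Klf13 depends on the scaling. Ccl5, its target in T cells, was at background on every array, between 1.8 and 5.1.

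Klf4, the growth-restraining factor, could not be assessed in these cells. Probe set 99622_at read 7.8 and 6.4 in medium and 6.9 and 8.9 with dexamethasone, and 161185_i_at read 0.2 and 0.3 in medium and 1.1 and 0.3 with dexamethasone. All 8 values were at background and no fold is given. Non-overlapping groups were found for 4 of the 5 tested members, all but Klf2, against 50.5% of all tested genes.

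**Figure D3:**
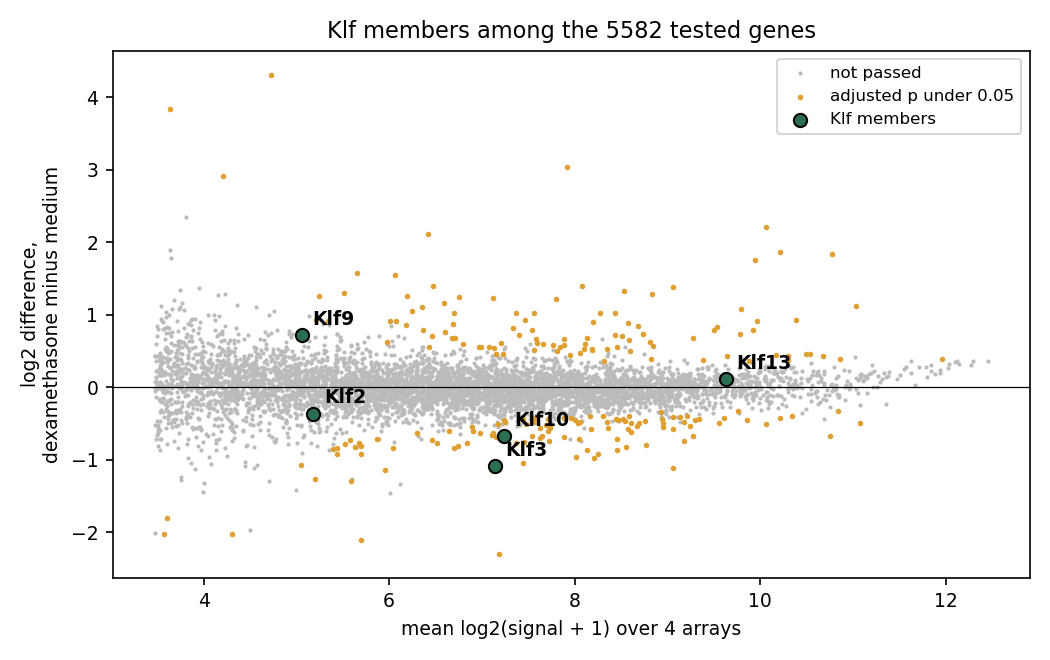
Log2 difference, dexamethasone minus medium, against mean log2(signal + 1) for the 5582 tested genes (grey), those with a limma adjusted p under 0.05 (orange) and the 5 tested Krüppel-like factors (green). Klf3 at -1.09 and Klf10 at -0.67 lie at the lower edge of the cloud at similar mean signal, and Klf13 at 0.11 lies within it.

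The genes whose profile over the 4 arrays was nearest to each changed factor were found by the root mean square difference of log2 signals centred on each gene's mean. For Klf3 these were Cldn4, a tight junction protein (0.05), Ccnd3, which encodes cyclin D3 (0.06), and Tmem68 (0.09), with log2 differences of -1.15, -1.11 and -0.93. For Klf10 they were Csnk1e, which encodes casein kinase 1 epsilon (0.02), the cytokine signalling inhibitor Socs1 (0.03) and the transcription factor Sox4 (0.03), at -0.68, -0.67 and -0.62. For Klf9, which had the adjusted p nearest to the threshold among the factors that did not pass, they were the chromatin protein gene Dek (0.01), the helicase gene Hells (0.04) and Defb2 (0.04), at 0.71, 0.65 and 0.73. With 4 arrays in 2 groups, such a profile holds little beyond the group difference.

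The closest relatives did not change past the threshold. Of 20 other Klf and Sp genes, 9 had a probe set naming a single gene and 7 were tested. Of the 7, 0 rose and 0 fell in limma, beside 1.88% and 2.02% of all tested genes. The median log2 difference of the 7 was -0.01. The largest differences were those of Sp1 and Klf7. Sp1, a ubiquitous GC-box activator, read 252.6 and 476.9 in medium and 207 ± 10.2 (SD, n = 2) with dexamethasone, a log2 difference of -0.74 ± 0.27 (adjusted p = 0.193). The second medium array stood far above the other 3, and Sp1 was at -0.29 without it (adjusted p = 0.361) and at -1.20 without the first medium array, past the threshold (adjusted p = 0.0212). Klf7 read 126.9 and 99.6 in medium and 67.8 and 79.8 with dexamethasone, at -0.61 ± 0.15 (adjusted p = 0.0919). After hybridization control scaling 3 of the 7 fell, beside 44.8% of all genes.

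Of 9 tested regulators upstream of Klf2 and Klf4, 0 rose and 1 fell (2.02% of all genes fell), and the other 8 did not pass. The difference was negative in all 9, as in 2785 of the 5582 tested genes. Their median log2 difference was -0.25, beside a median of 0.000743 and a median absolute difference of 0.16 over all tested genes. Hdac7, a class IIa deacetylase that binds Mef2 factors, fell from 1304.6 and 1234.3 to 925.4 and 864.5, a log2 difference of -0.50 ± 0.07 (limma adjusted p = 0.0170). Without the first or second medium array Hdac7 was at -0.46 and -0.54, and without the first or second dexamethasone array at -0.55 and -0.46, each time short of the threshold (adjusted p from 0.0545 to 0.173). Mef2d, a target of the kinase ERK5, was at -0.35 ± 0.08 (adjusted p = 0.0617) and Mapk7, which encodes ERK5, at -0.38 ± 0.11 (adjusted p = 0.125). Foxo3, a forkhead factor, was at -0.02. All 9 fell after hybridization control scaling, under which 44.8% of all genes fell.

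Known targets of Klf2 and Klf4 showed no change that passed. S1pr1, the receptor through which Klf2 promotes thymic exit, was at background on every array, at 7.7 and 7.6 in medium and 4.0 and 8.4 with dexamethasone. Of 12 listed targets, 9 were on the array and 5 were tested. In limma 0 rose and 0 fell, beside 1.88% and 2.02% of all tested genes. The median log2 difference of the 5 was -0.09. Itgb7, the integrin beta 7 chain, read 167.9 and 161.7 in medium and 125.3 and 126.2 with dexamethasone, at -0.39 ± 0.09 (adjusted p = 0.0633). Its other probe set was at background on every array, and the mean of both gave -0.09. Ccnd1, which encodes cyclin D1, was at background in medium, at 13.9 and 11.1, and read 18.1 and 17.9 with dexamethasone (adjusted p = 0.348). Its other probe set read 12.5 and 12.5 in medium and 8.5 and 15.8 with dexamethasone (adjusted p = 0.916 in the limma fit on probe sets). Ccr7, a homing receptor, was at -0.09 ± 0.15. Among 4 tested targets of Klf3, Klf9 and Klf13, 0 passed, beside 3.91% of all genes. Closest was Bcl2l1, which encodes the survival protein Bcl-xL, with 597.6 and 733.9 in medium and 480.2 and 472.3 with dexamethasone, at -0.47 ± 0.10 (adjusted p = 0.0629), which passed with the replicate block (adjusted p = 0.0309) and with the stricter filter (0.0460). Lgals3, which encodes galectin-3 and is repressed by Klf3, was dim at 17.6 and 15.8 in medium and at background with dexamethasone, at 7.2 and 10.9 (adjusted p = 0.210).

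Of the TGF-beta pathway, in which Klf10 is an early target, 13 of 18 listed genes were tested. Of the 13, 0 rose and 1 fell, beside 1.88% and 2.02% of all tested genes. Their median log2 difference was 0.16. The gene that fell was Tgfb1, the ligand, from 327.9 and 298.5 to 237.0 and 213.2, which is -0.48 ± 0.09 on the log2 scale (adjusted p = 0.0446 in limma). The call was lost without each array in turn, at -0.41 and -0.54 without the first and second medium array and at -0.55 and -0.40 without the first and second dexamethasone array. It was also lost with quantile normalization (adjusted p = 0.0670), without the filter on low signals (0.0779) and with the mean of probe sets (0.0503). The receptor gene Tgfbr1 and Tgfbr2 were at background, at most 11.0 on any array. The signal transducers Smad2 and Smad4 were at 0.16 ± 0.10 and -0.13 ± 0.07. Smad7, the inhibitory Smad that Klf10 represses, read 31.9 and 29.9 in medium and 30.9 and 54.8 with dexamethasone, so the 2 dexamethasone arrays disagreed. Skil, a corepressor of Smads, was at background in medium, at 12.1 and 4.4, and read 16.9 and 24.5 with dexamethasone without passing (adjusted p = 0.185). After hybridization control scaling Skil passed upwards at 0.89 (adjusted p = 0.0493), and 5 of the 13 fell and 1 rose, in a setting where 44.8% of all genes fell.

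Among the corepressors and coactivators through which these factors act, 13 of 17 listed genes were tested. Of the 13, 0 rose and 1 fell, beside 1.88% and 2.02% of all tested genes. Their median log2 difference was -0.08. Ctbp1, the corepressor recruited by Klf3, was bright and nearly level, at 753.2 and 783.0 in medium and 793.4 and 786.0 with dexamethasone, a log2 difference of 0.04 ± 0.06, while Ctbp2 was at background. Sin3a and Sin3b, the scaffolds bound by Klf9, Klf10 and Klf13, were at 0.19 ± 0.07 and -0.13 ± 0.06 and did not pass. Hdac1, a deacetylase of the Sin3 complex, fell from 430.5 and 421.1 to 309.9 and 320.7, a log2 difference of -0.43 ± 0.07 (limma adjusted p = 0.0262). It was at -0.42 and -0.45 without the first and second medium array and at -0.41 and -0.46 without the first and second dexamethasone array, each short of the threshold. Hdac2 was at 0.08 ± 0.09.

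**Figure D4:**
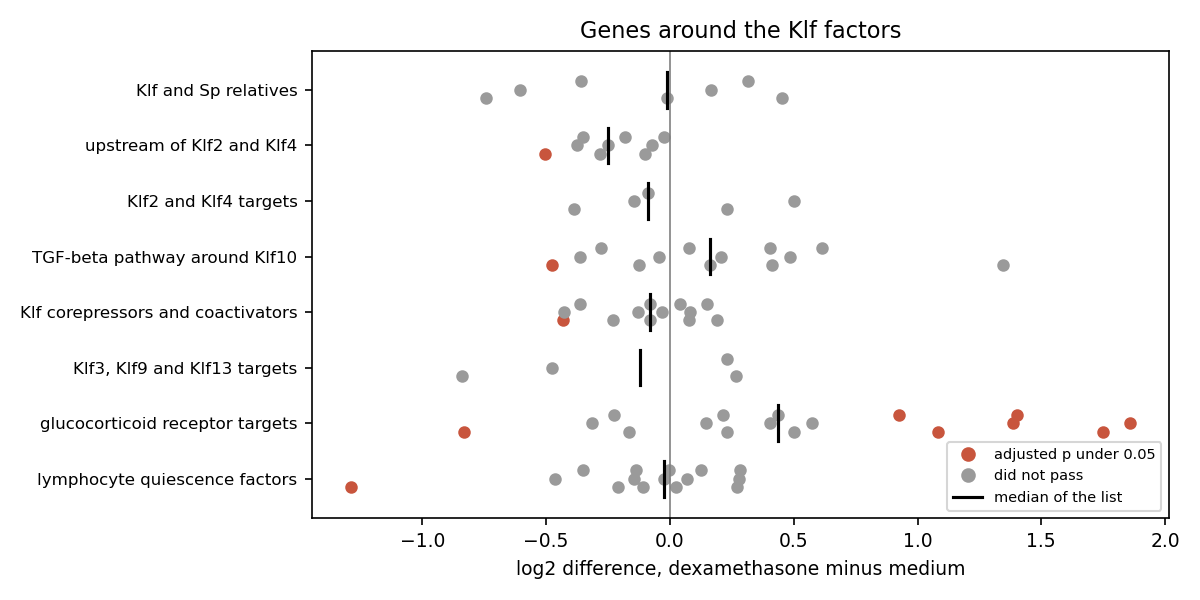
Log2 difference, dexamethasone minus medium, of each tested gene in 8 lists around the Krüppel-like factors, red where the limma adjusted p was under 0.05, with a black bar at each list's median. Passing genes number 1 or 0 in every list but the glucocorticoid receptor targets, which hold 7.

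Established targets of the glucocorticoid receptor gave 6 rises and 1 fall among 17 tested of 21 listed, with a median log2 difference of 0.44. Of all tested genes 1.88% rose and 2.02% fell, with a median of 0.000743. This list was chosen with earlier results of these data known, so its counts set no scale for the Klf members. The rises were Fkbp5 (1.86), Ddit4 (1.75), Il7r (1.40), Bcl2l11 (1.39), Txnip (1.08) and Nr3c1 (0.93), and Zfp36 fell by 0.83 on the log2 scale. The rise of Txnip was that of its brighter probe set, whereas the dimmer one, above background, read 39.2 ± 5.52 (SD, n = 2) in medium and 39.1 ± 4.10 with dexamethasone, and the mean of both gave 0.54. Bcl2l11, at 1.39 on its brightest probe set, was at 1.30 and 0.44 on the others, the last without passing (adjusted p = 0.244). The Klf9 difference of 0.71 did not pass, and Per1 at 0.40 and Sgk1 at 0.44 did not pass either. The call of Nr3c1 and that of Zfp36 were lost without any one array, and that of Il7r without the first dexamethasone array (adjusted p = 0.0523). Nr3c1 was then at 0.82 to 1.03 and Zfp36 at -0.84 to -0.83. Without the variance trend the calls of Txnip, Il7r, Nr3c1 and Zfp36 were lost, as were those of Hdac7, Hdac1, Runx1 and Tgfb1 (adjusted p from 0.0535 to 0.170). The call of Nr3c1 was also lost without the filter on low signals (adjusted p = 0.0857) and after hybridization control scaling (0.47, limma adjusted p = 0.0875). In the list that scaling gave 5 rises and 4 falls, with a median log2 difference of -0.02. Of all genes, 44.8% fell in that setting.

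Among factors that hold lymphocytes quiescent, the process in which Klf2 and Klf4 act, 15 of 17 listed genes were tested. Of the 15, 0 rose and 1 fell, beside 1.88% and 2.02% of all tested genes. Their median log2 difference was -0.02. Runx1 fell from 76.9 and 72.0 to 27.3 and 32.7, a log2 difference of -1.29 ± 0.15 (limma, adjusted p = 0.0102). Its call was lost without the first medium array (-1.24), the second medium array (-1.33) and the first dexamethasone array (-1.16), and kept without the second (-1.41, adjusted p = 0.0364). Btg1 and Btg2, antiproliferative proteins of a shared family, were at -0.14 and -0.11. Slfn2 and Foxp1 were both at 0.28 (adjusted p = 0.0903 and 0.0887).

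**Figure D5:**
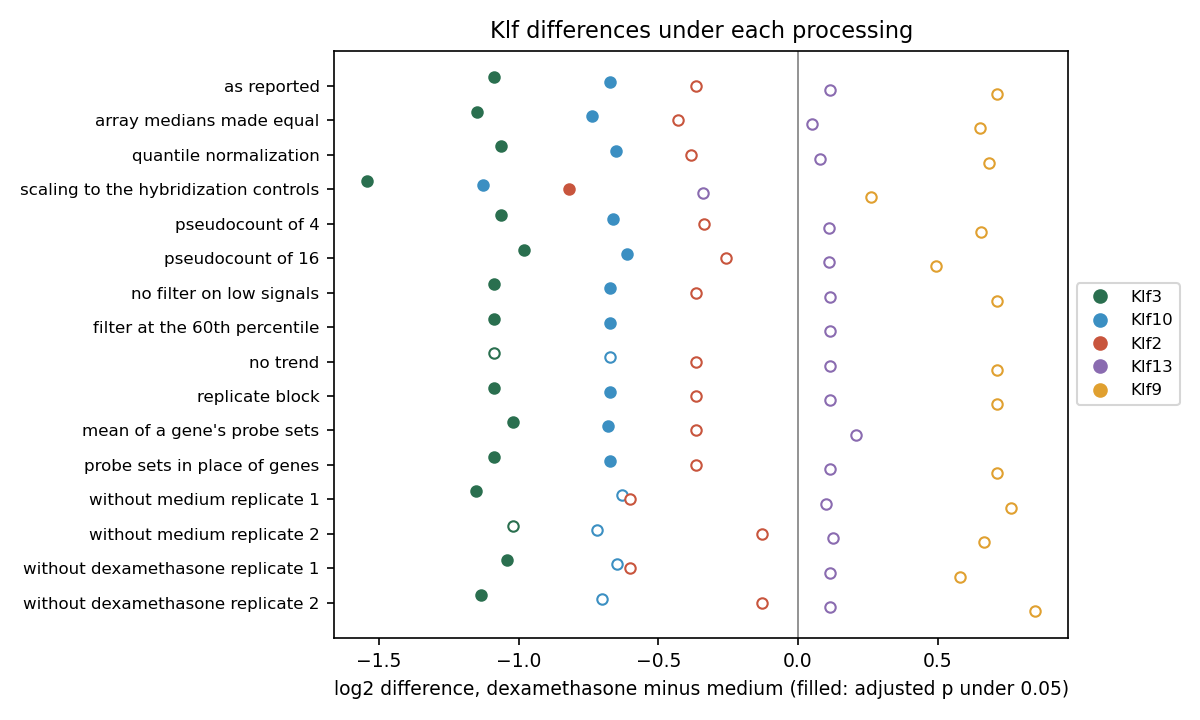
Log2 difference of the 5 tested Krüppel-like factors under the reported processing and 15 alternatives, filled where the limma adjusted p was under 0.05. Klf3 and Klf10 stay below 0 and Klf9 above 0 in every setting in which each was tested, while Klf13 is below 0 after scaling to the hybridization controls.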

How the data were processed

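Klf members and gene lists were chosen with earlier results of these data known. The deposited values are intensities per probe set on a linear scale, made by the authors with MAS5 per the submitters' processing notes, with version and settings not given in the sources used here. Trimmed means were 100.06 to 100.07 on every array, so all share a global scaling. The 66 control probe sets were left out of the tests. Of the rest, 10833 named 1 gene, 396 several and 1193 none, and 10817 of the first matched the RefSeq gene table by gene ID.

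Values were used as log2(signal + 1). Each gene was its brightest probe set, and genes with a mean at or under the 40th percentile of all non-control probe sets were left out, which left 5582. Groups were compared with lmFit and eBayes with a variance trend in limma (version 3.58.1, R 4.3.3), as a two-sided test. P-values were adjusted by Benjamini-Hochberg, and an adjusted p under 0.05 was called. Other probe sets of a gene come from the same fit on 6701 single-gene probe sets. The fit was tested on simulated data. The number of arrays limits the precision. Medium and dexamethasone are the labels' groups.

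Named besides the Klf members were the passing genes of 8 lists or, where none passed, the 2 with the largest difference, the 3 nearest profiles of Klf3, Klf10 and Klf9, and Bcl2l1 and Ccl5. Other genes were chosen after their values were seen. The 15 alternatives were 3 scalings, 2 pseudocounts, 2 filters, no variance trend, a block on replicate number, averaging the probe sets of each gene, a fit of single probe sets, and leaving out each array. No genome was used here, and promoter sequences are from RefSeq, GRCm38.p6.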

Additional observations from a re-analysis of the deposited data

How the results depend on the processing

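The arrays limit all calls: 2 extracts a group leave 1 array against 2 when any is left out, and the lone array is then assumed to vary like the others. Leaving out each array gave 32 to 78 changed genes (27 to 47 rises and 3 to 31 falls), against 218, and 0 to 1 fallen Klf members, with 0 without the second medium array. Klf3 then lay at -1.15 to -1.02 and Klf10 at -0.72 to -0.63. Without the variance trend 19 genes changed (17 rose, 2 fell) and 0 Klf members fell, with Klf3 at -1.09 (adjusted p = 0.0656) and Klf10 at -0.67 (adjusted p = 0.0899). After hybridization control scaling 2541 genes changed (43 rose, 2498 fell), Klf2 passed at -0.82, and Klf13 turned to -0.34 and, on its dimmer probe set, -0.15. The p-values of that setting rest on a spread shared by genes of like signal. Without a filter 116 genes changed (63 rose, 53 fell). The cause of these changes was not tested, save that fewer arrays, more genes tested, or a scaling that shifts all genes alike, enter by construction. With the replicate block 353 genes changed (169 rose, 184 fell). Whether same-numbered arrays belong together is not stated. Across probe sets, the deviations of same-numbered arrays from their group means had a correlation of 0.0806. With so few arrays this cannot settle whether they are paired. No call of a Klf member changed with the block. The direction of Klf3, Klf10, Klf2 and Klf9 was kept in every alternative in which each was tested. Klf2 was not tested with the stricter filter, nor Klf9 with it or with the mean of probe sets. Klf4 was tested only without a filter.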

Other observations

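Klf6, an early-response member of the family, was chosen after its value was seen. It read 472.0 and 465.2 in medium and 391.1 and 340.7 with dexamethasone, a log2 difference of -0.36 ± 0.09 that did not pass (limma adjusted p = 0.0773). It passed with array medians made equal (-0.42, adjusted p = 0.0430), with the replicate block (adjusted p = 0.0459) and with scaling to the hybridization controls (-0.81), and in 0 of the fits that left out an array. Sp3, a GC-box factor related to Sp1, was at 0.17 ± 0.07 (limma adjusted p = 0.283), with 323.8 and 317.1 in medium and 346.1 and 373.6 with dexamethasone.

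Kat2b, which encodes the acetyltransferase PCAF, read 246.9 and 241.8 in medium and 169.3 and 194.8 with dexamethasone, a log2 difference of -0.43 ± 0.09 (limma adjusted p = 0.0633). It was also chosen after its value was seen.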
